A study of Mus musculus with 8 samples.

Results

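The retinoblastoma (RB) and E2F families were followed by the RNA of 10 genes in mouse pancreatic islets: the pocket protein genes *Rb1*, *Rbl1* and *Rbl2*, the E2F transcription factor genes *E2f1*, *E2f2*, *E2f3*, *E2f4*, *E2f7* and *E2f8*, and *Ccne1*, which encodes cyclin E1. They were taken by gene symbol from the 24123 genes of the deposited matrix, and all 10 were found. Of these, 9 had at least 1 RPKM (reads divided by the length of the gene's exons and by the reads of the library) in at least 2 libraries, as did 12594 genes in all, and only these were tested. *E2f7* lay under that limit in every library. *E2f8* passed it only through the Rescue libraries, so its difference from the other genotypes was favoured by the filter.

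The islets came from adult male mice of 3 genotypes, with 8 polyA RNA libraries. Rescue libraries (replicates 1 and 2) were *Irs2*-/-;*Cdk4*-R24C/R24C, Diabetic libraries (replicates 1, 2 and 3) were *Irs2*-/-;*Cdk4*-WT/WT, and Control libraries (replicates 1, 3 and 4) were *Irs2*+/+;*Cdk4*-WT/WT. Both alleles were carried in the whole body, the R24C change at the endogenous *Cdk4* locus, and the line was not extensively backcrossed to C57BL/6N. The labels do not say whether a library held the islets of 1 mouse, so p-values measure only the spread between these libraries. The library sizes that the RPKM values imply were 10.8 M (Diabetic 2) to 15.1 M reads (Control 1), and the reads recovered for the listed genes summed to 9.65 M to 13.3 M. *Irs2* was listed at 7.15 and 16.3 RPKM in the libraries labelled Rescue and at 22.0 to 36.3 RPKM in those labelled Diabetic, against 5.14 to 10.96 RPKM in Control; a value per gene does not show whether the reads cover the deleted part, and does not check the labels. *Ins1*, an insulin gene and the defining marker of β cells, was between 36579 and 84398 RPKM in all 8 libraries. Not all β cell genes were as even. *Slc2a2* was at 23.3 and 54.5 RPKM in Rescue, 30.9 to 40.6 RPKM in Diabetic and 108 to 221 RPKM in Control libraries, and the β cell list is counted below.

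CDK4 bound to a D-type cyclin phosphorylates the pocket proteins RB1, p107 (*Rbl1*) and p130 (*Rbl2*). Unphosphorylated, these hold E2F factors in repressor complexes at genes of DNA replication and mitosis. E2F1, E2F2 and E2F3 are the activators of such genes, E2F4 acts mainly as a repressor bound to p107 or p130, and E2F7 and E2F8 are atypical repressors that need no pocket protein. Cyclin E1 activates CDK2, which phosphorylates RB further, and *Ccne1* is itself a classical E2F target. The R24C form of CDK4 does not bind the INK4 inhibitors. In adult islets β cells divide rarely, and a whole islet also holds other endocrine cells, vessels and immune cells.

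Because several of these genes were highest in both Rescue libraries, promoters are shown, from 250 bases before to 50 bases after the RefSeq transcription start of GRCm38.p6. RefSeq windows were at hand for 8 of the 10 genes (10 windows, with 2 each for *E2f2* and *E2f3*). Both strands were searched for an 8-base E2F site (TTTCCCGC, TTTGGCGC, TTTGCCGC or TTTCGCGC) and for the same forms without their first T, a 7-base core that each 8-base site contains. The windows below belong to the 4 genes with a window that were called higher in Rescue than in Diabetic islets, and capitals mark the site or core.
Rbl1 (chr2:157204485-157204784, minus strand): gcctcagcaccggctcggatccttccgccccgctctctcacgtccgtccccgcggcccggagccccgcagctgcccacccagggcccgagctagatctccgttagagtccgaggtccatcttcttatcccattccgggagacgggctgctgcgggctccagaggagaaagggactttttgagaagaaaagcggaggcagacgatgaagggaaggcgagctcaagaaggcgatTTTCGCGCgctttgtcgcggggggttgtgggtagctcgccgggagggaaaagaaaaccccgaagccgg
E2f2 (chr4:136172024-136172323, plus strand): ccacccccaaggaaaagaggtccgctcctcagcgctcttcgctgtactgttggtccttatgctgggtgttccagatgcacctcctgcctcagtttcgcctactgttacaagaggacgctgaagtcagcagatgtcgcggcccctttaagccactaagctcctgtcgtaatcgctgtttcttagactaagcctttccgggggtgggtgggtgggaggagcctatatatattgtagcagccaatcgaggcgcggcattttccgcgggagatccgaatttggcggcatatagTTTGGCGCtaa
E2f8 (chr7:48881547-48881846, minus strand): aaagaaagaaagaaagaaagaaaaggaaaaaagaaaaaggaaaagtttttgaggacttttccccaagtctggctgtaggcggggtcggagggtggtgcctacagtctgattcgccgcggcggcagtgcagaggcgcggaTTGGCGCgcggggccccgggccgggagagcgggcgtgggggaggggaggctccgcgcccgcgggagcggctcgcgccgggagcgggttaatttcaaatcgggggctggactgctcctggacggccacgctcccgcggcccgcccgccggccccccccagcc
Ccne1 (chr7:38107441-38107740, minus strand): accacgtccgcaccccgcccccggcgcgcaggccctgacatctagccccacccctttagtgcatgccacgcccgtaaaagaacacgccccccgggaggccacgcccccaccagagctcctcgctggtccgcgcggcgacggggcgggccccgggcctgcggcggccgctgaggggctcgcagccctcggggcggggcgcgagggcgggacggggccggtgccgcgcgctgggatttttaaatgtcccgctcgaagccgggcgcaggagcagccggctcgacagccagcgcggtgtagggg
An 8-base site stood in the windows of *Rbl1* (TTTCGCGC, first base 18 bases before the start) and *E2f2* (TTTGGCGC, first base at +40 counted from the start as +1). In GENCODE M21 *E2f2* starts only at position 136172394, past the end of this window, so its site lies outside that gene model. The other *E2f2* window (chr4:136180532-136180831), which lies inside that gene model, held neither form. *E2f8* held only the core TTGGCGC, 111 bases before the start, and *Ccne1* neither.

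Among the genes that were not called, the window of *E2f3* that holds E2F forms is shown for comparison, with capitals on its minus-strand TTTCCCGC (read here as its complement, 11 bases before the start) and on a TTGGCGC core at +19.
E2f3 (chr13:29986014-29986313, minus strand): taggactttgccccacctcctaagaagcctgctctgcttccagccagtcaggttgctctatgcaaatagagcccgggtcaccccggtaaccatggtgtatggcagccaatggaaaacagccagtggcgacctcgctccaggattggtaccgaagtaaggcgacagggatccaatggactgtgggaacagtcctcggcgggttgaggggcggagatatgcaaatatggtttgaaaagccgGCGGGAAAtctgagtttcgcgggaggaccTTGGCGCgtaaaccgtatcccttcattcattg
The *E2f7* window held TTTCCCGC on the minus strand 198 bases before the start and 2 further cores. Neither form was in the windows of *E2f1* and *Rbl2* or in the other window of *E2f3*. The *E2f1* window (chr2:154569377-154569676) lies inside the GENCODE M21 gene, which starts at 154569892 on the minus strand. The bases before that start were not searched, so this window does not describe them. The other window of *E2f3* also lies inside its gene. Such windows remain in the counts that follow. In all, 4 of the 10 windows of these genes held an 8-base site, against 2.26% of 32851 mouse promoter windows of the same length, and 5 held a core, against 9.57%. The CHR element (TTTGAA or TTCGAA), through which MuvB complexes bind mitotic genes, was in 4 of the 10 windows, against 19.2% of all, and CCAAT in 5, against 37.4%. These matches describe the letters of the windows only.

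In GENCODE M21 on GRCm38 the genes without a printed window lie at chr14:73183673-73325822 (*Rb1*, minus strand), chr8:91070057-91123844 (*Rbl2*, plus), chr2:154559407-154569892 (*E2f1*, minus), chr8:105297663-105305370 (*E2f4*, plus) and chr10:110745439-110787384 (*E2f7*, plus). All values are per gene, over its exons. On the RPKM scale, which is per length, *E2f4* was the most abundant, between 10.05 and 22.7 RPKM over the 8 libraries, and above *E2f1* (5.02 to 10.04 RPKM) in all 8. *E2f1*, *Rbl2* and *Rb1* lay close together, with *E2f1* above *Rbl2* in 6 of 8 libraries and *Rbl2* above *Rb1* in 7 of 8. *E2f2* and *Rbl1* came next and could not be ordered, since *E2f2* was the higher in 5 of 8 libraries. *Rbl1* exceeded *Ccne1* in all 8, *Ccne1* exceeded *E2f3* in 6, *E2f3* exceeded *E2f8* in 7, and *E2f7* was lowest in 7, at 0.174 to 0.853 RPKM over all 8. The widest range over libraries was that of *E2f8*, whose highest value was 15.6 times its lowest, and the narrowest that of *Rbl2*, at 1.72 times.

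**Figure D1:**
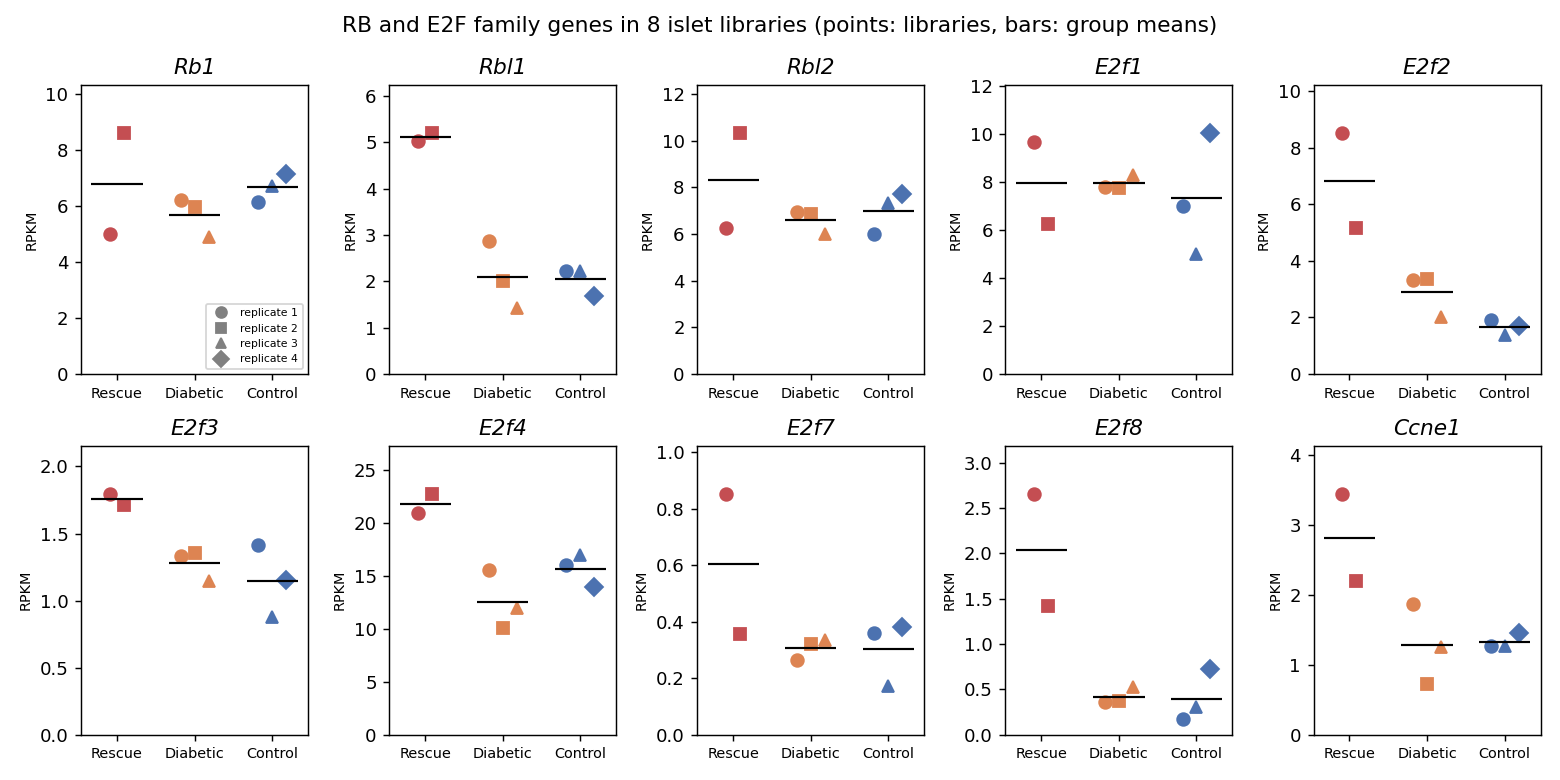
RPKM (y axis, from 0) of the 10 genes in each library of the Rescue, Diabetic and Control genotypes (x axis); points are libraries, with 1 symbol per replicate number, and bars are group means. Both Rescue libraries lay above the other 6 for Rbl1, E2f2, E2f3, E2f4, E2f8 and Ccne1, but not for Rb1, Rbl2, E2f1 or E2f7.

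The pocket protein genes were compared first, as the direct substrates of CDK4. *Rbl1*, the gene of p107, was at 5.03 and 5.20 RPKM in Rescue libraries, at 2.88, 2.02 and 1.42 RPKM in Diabetic libraries and at 2.22, 2.22 and 1.69 RPKM in Control libraries. Both Rescue libraries lay above all others, and Diabetic and Control libraries overlapped. The difference of log2(RPKM + 1), on which scale all differences here are given, was 1.01 for Rescue minus Diabetic (SE 0.21, adjusted p = 0.0102) and 1.01 for Rescue minus Control (SE 0.21, adjusted p = 0.00937), by limma over all 12594 genes with Benjamini-Hochberg adjustment, whose adjusted p under 0.05 is what called means below. Without Rescue 1 the adjusted p was 0.0605 and 0.0583 in these 2 comparisons, at a difference of 1.02 and 1.03.

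*Rb1*, the tumour suppressor that gives the family its name, was at 4.999 and 8.60 RPKM in Rescue libraries, at 6.22, 5.96 and 4.90 RPKM in Diabetic libraries and at 6.14, 6.71 and 7.16 RPKM in Control libraries. *Rbl2*, the gene of p130, which is the pocket protein typical of resting cells, was at 6.27 and 10.3 RPKM in Rescue, at 6.96, 6.85 and 6.01 RPKM in Diabetic and at 6.02, 7.31 and 7.69 RPKM in Control libraries. The Rescue libraries differed from each other more than the genotypes did: for both genes Rescue 2 was the highest library of all and Rescue 1 among the lower ones. Rescue minus Diabetic was 0.19 for *Rb1* (SE 0.21, adjusted p = 0.523) and 0.26 for *Rbl2* (SE 0.21, adjusted p = 0.363) by limma, and neither was called in any comparison. These SEs leave room for a difference of either sign.

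The make-up of the pocket protein RNA differed accordingly. *Rbl1* made 30.9% and 21.5% of the summed RPKM of the 3 genes in Rescue libraries, 17.9%, 13.6% and 11.5% in Diabetic libraries and 15.4%, 13.7% and 10.2% in Control libraries. *Rb1* made 30.7% and 35.7% in Rescue libraries, 38.8% to 40.2% in Diabetic libraries and 41.3% to 43.3% in Control libraries. The shares of the genotypes did not overlap for *Rb1*, and those of *Rbl1* overlapped only between Diabetic and Control. The sum itself was 16.3 and 24.1 RPKM in Rescue libraries, 12.3 to 16.1 RPKM in Diabetic libraries and 14.4 to 16.5 RPKM in Control libraries.

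**Figure D2:**
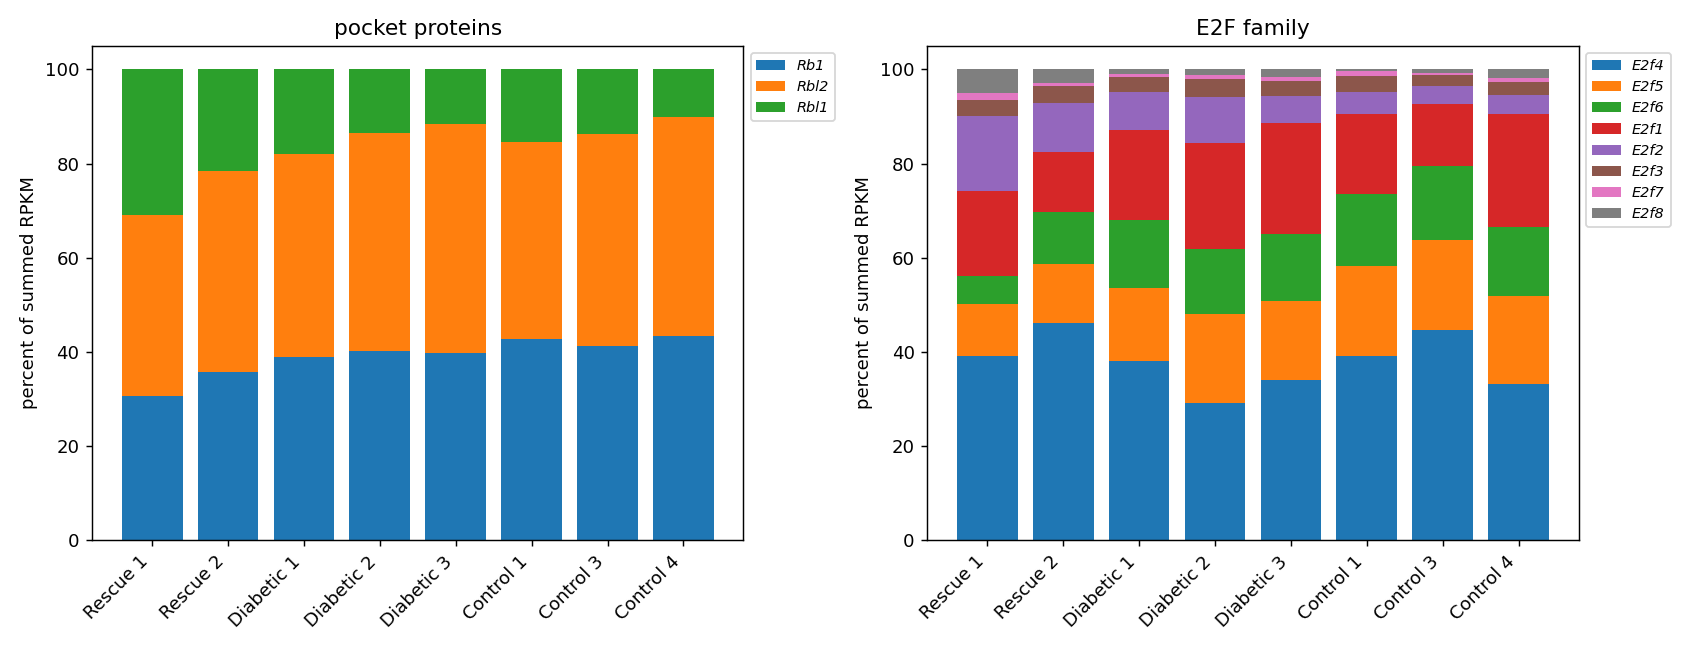
Percent of summed RPKM (y axis) that each pocket protein gene (left) and each E2F gene (right, with the relatives E2f5 and E2f6) made in each of the 8 libraries (x axis). Rbl1 took 30.9% and 21.5% of the pocket protein sum in Rescue libraries and at most 17.9% in the others, and E2f2 took 15.9% and 10.5% of the E2F sum in Rescue libraries and at most 9.76% in the others.

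Of the activator E2Fs, only *E2f2* was called in a comparison. It was at 8.51 and 5.15 RPKM in Rescue libraries, at 3.31, 3.37 and 2.01 RPKM in Diabetic libraries and at 1.90, 1.40 and 1.70 RPKM in Control libraries, and no 2 genotypes overlapped. Diabetic 3 and Control 1 nearly touched, and between Diabetic and Control libraries 31.7% of all tested genes did not overlap. Rescue minus Control was 1.53 (SE 0.24, adjusted p = 0.00242) and Rescue minus Diabetic 0.99 (SE 0.24, adjusted p = 0.0181) by limma. Diabetic minus Control was 0.53 (SE 0.22) and was not called (adjusted p = 0.191, unadjusted p = 0.0390). Without Rescue 1 the difference from Diabetic was 0.68 (adjusted p = 0.136) and that from Control 1.21 (adjusted p = 0.0269).

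*E2f1*, the activator most often taken as the family's prototype, did not follow *E2f2*. It was at 9.69 and 6.27 RPKM in Rescue libraries, at 7.81, 7.75 and 8.30 RPKM in Diabetic libraries and at 6.99, 5.02 and 10.04 RPKM in Control libraries, with all 3 genotypes overlapping. Rescue minus Diabetic was -0.02 (SE 0.26, adjusted p = 0.957) and Rescue minus Control 0.12 (SE 0.26, adjusted p = 0.771) by limma. *E2f3* was at 1.80 and 1.71 RPKM in Rescue libraries, at 1.33, 1.35 and 1.15 RPKM in Diabetic libraries and at 1.41, 0.880 and 1.15 RPKM in Control libraries. Both Rescue libraries were the highest for *E2f3*, yet the difference of 0.28 from Diabetic (SE 0.16, adjusted p = 0.215) and of 0.37 from Control (SE 0.16, adjusted p = 0.136) was not called. With values this near the added 1, the log2 scale understates differences of *E2f3*.

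*E2f4*, the most abundant E2F of these islets, was at 20.9 and 22.7 RPKM in Rescue libraries, at 15.5, 10.05 and 11.98 RPKM in Diabetic libraries and at 16.0, 16.9 and 13.9 RPKM in Control libraries. Both Rescue libraries were above all others, and Diabetic 2 and Diabetic 3 were below every Control library, while Diabetic 1 was within them. Diabetic 2, Diabetic 3 and Control 4, the lowest for *E2f4*, also had the least nuclear-retained RNA, such as *Malat1*, described below. Rescue minus Diabetic was 0.77 (SE 0.19, adjusted p = 0.0168), whereas Rescue minus Control, at 0.46 (SE 0.19, adjusted p = 0.112), and Diabetic minus Control, at -0.31 (SE 0.17, adjusted p = 0.290), were not called by limma. The call against Diabetic was lost without Rescue 1 (adjusted p = 0.0634), without Rescue 2 (0.0558) or without Diabetic 2 (0.0558).

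The atypical repressors were the rarest of the family. *E2f8* was at 2.66 and 1.42 RPKM in Rescue libraries (175 and 94 reads), at 0.359, 0.376 and 0.530 RPKM in Diabetic libraries (27, 22 and 37 reads) and at 0.170, 0.302 and 0.723 RPKM in Control libraries (14, 21 and 56 reads). Mean levels were 2.04 ± 0.87 RPKM (SD, n = 2) in Rescue, 0.422 ± 0.094 RPKM (SD, n = 3) in Diabetic and 0.398 ± 0.288 RPKM (SD, n = 3) in Control libraries, a ratio of 4.84 to Diabetic and 5.12 to Control. The log2 differences were 1.07 (SE 0.23, adjusted p = 0.0108) and 1.11 (SE 0.23, adjusted p = 0.00868) by limma, and without Rescue 1 they were 0.77 (adjusted p = 0.0891) and 0.81 (adjusted p = 0.0845).

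*E2f7*, the closest paralogue of *E2f8*, was at 0.853 and 0.357 RPKM in Rescue libraries (93 and 39 reads), at 0.265, 0.320 and 0.337 RPKM in Diabetic libraries (33, 31 and 39 reads) and at 0.360, 0.174 and 0.382 RPKM in Control libraries (49, 20 and 49 reads). Only Rescue 1 stood clear of the others, and Rescue 2 lay inside the Control range. Summed over both atypical genes, the level was 3.51 and 1.78 RPKM in Rescue libraries, 0.624 to 0.867 RPKM in Diabetic libraries and 0.476 to 1.10 RPKM in Control libraries.

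*Ccne1* was at 3.44 and 2.20 RPKM in Rescue libraries (111 and 71 reads), at 1.88, 0.733 and 1.26 RPKM in Diabetic libraries (69, 21 and 43 reads) and at 1.27, 1.27 and 1.45 RPKM in Control libraries (51, 43 and 55 reads). Both Rescue libraries were highest, with Diabetic 1 next. Rescue minus Diabetic was 0.75 (SE 0.24, adjusted p = 0.0445), just inside the threshold, and Rescue minus Control was 0.70 (SE 0.24, adjusted p = 0.0673), just outside it, by limma. Of 20 alternative settings, 16 put the first of these above 0.05, among them the removal of Rescue 1 (0.51, adjusted p = 0.260) and of Diabetic 2 (0.56, adjusted p = 0.129). The removal of Diabetic 1 gave 0.93 (adjusted p = 0.0154) and brought the comparison with Control to an adjusted p of 0.0381.

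**Figure D3:**
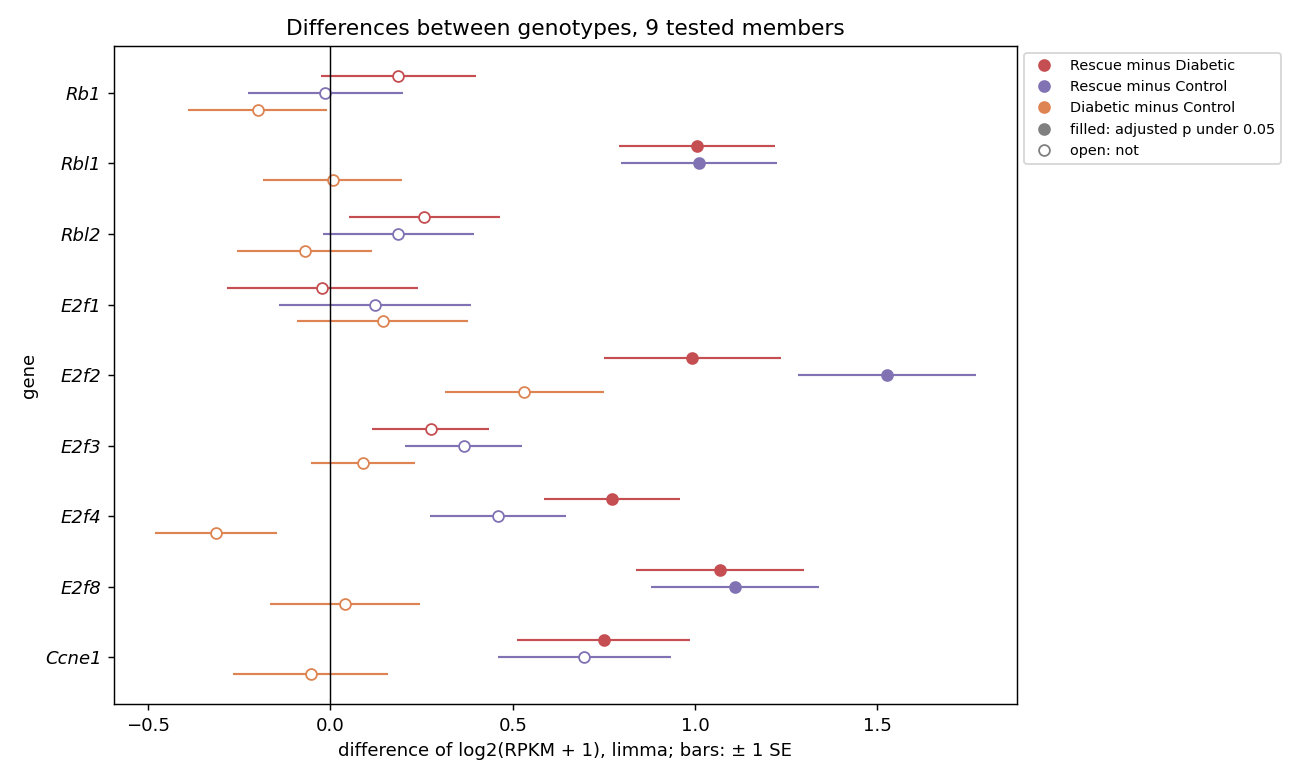
Difference of log2(RPKM + 1) (x axis) for the 9 tested genes (y axis) in Rescue minus Diabetic, Rescue minus Control and Diabetic minus Control; points are limma estimates, bars ± 1 SE, and filled points were called at an adjusted p under 0.05. Filled points are Rbl1, E2f2 and E2f8 in both Rescue comparisons and E2f4 and Ccne1 against Diabetic, and no point of Diabetic minus Control is filled.

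Set against Diabetic islets, Rescue islets had 5 of the 9 tested genes called higher and 0 lower, where 24% of all tested genes were called higher and 5.8% lower (29.8% in all). Against Control, 3 were called higher and 0 lower in Rescue islets, where 18% of all tested genes were higher and 5.48% lower (23.5% in all). The genes called in both comparisons include *E2f8*, which passed the filter only through Rescue libraries, so both counts were favoured by the filter. In Diabetic islets 0 of 9 were called against Control by limma (only *E2f2* had an unadjusted p under 0.05), where 1.53% of all tested genes were higher and 2.44% lower (3.97% in all). The median difference of the 9 genes was 0.75 for Rescue minus Diabetic, against 0.24 over all tested genes, 0.46 for Rescue minus Control, against 0.08, and 0.01 for Diabetic minus Control, against -0.12. Since so many genes were higher in Rescue than in Diabetic islets, calls of single genes and the counts of the gene lists below are to be read beside these shares.

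The genotypes did not overlap for 6 of the 9 tested genes between Rescue and Diabetic libraries and for 6 between Rescue and Control libraries. For 55% and 52% of all tested genes the libraries did not overlap in these comparisons. Between Diabetic and Control libraries only *E2f2* did not overlap, against 31.7% of all tested genes. Both Rescue comparisons share their Rescue libraries and are not independent of each other.

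The 2 Rescue libraries were unlike each other gene by gene. Rescue 1 exceeded Rescue 2 by a ratio of 1.65 for *E2f2*, 1.55 for *E2f1*, 2.39 for *E2f7*, 1.87 for *E2f8* and 1.57 for *Ccne1*. The ratio was near 1 for *Rbl1* (0.968), *E2f3* (1.05) and *E2f4* (0.920) and was 0.581 for *Rb1* and 0.608 for *Rbl2*, with a median of 0.898 over all tested genes. All 36 genes of the G1/S list and all 25 of the G2/M list described next were also higher in Rescue 1 than in Rescue 2, at a median ratio of 1.47 and 1.84. With 1 library on each side these ratios have no test.

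Genes that E2F factors activate at the G1/S transition were counted next, from a list of 36 replication genes of which 32 were tested. In Rescue islets 29 of 32 were called higher and 0 lower than in Diabetic islets (median difference 1.19, against 0.24 over all tested genes), and 30 of 32 were higher and 0 lower than in Control (median 1.24, against 0.08). The filter favoured 8 of the 32, which passed it only through Rescue libraries; of the other 24, 22 were called higher in each comparison. *Mcm3*, a subunit of the replicative helicase, was at 18.9 and 11.3 RPKM in Rescue libraries, at 2.89, 3.17 and 2.39 RPKM in Diabetic libraries and at 1.91, 1.61 and 2.40 RPKM in Control libraries. *Uhrf1*, which carries DNA methylation through replication, was at 11.6 and 6.73 RPKM in Rescue libraries, at 0.787 to 1.79 RPKM in Diabetic libraries and at 0.773 to 1.29 RPKM in Control libraries. The helicase subunits *Mcm5* (2.01) and *Mcm6* (1.83) followed them against Diabetic, and *Mcm5* (2.34) and the ribonucleotide reductase subunit *Rrm2* (2.21) against Control. *Cdc25a*, a CDK-activating phosphatase, was an exception, with 5.50 ± 0.49 RPKM in Rescue (SD, n = 2), 6.36 ± 0.53 RPKM in Diabetic (SD, n = 3) and 4.51 ± 0.37 RPKM in Control libraries (SD, n = 3), not called in any comparison.

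The later wave, genes of G2 and mitosis that MuvB complexes control, showed the same direction in Rescue islets. All 25 tested were called higher than in Diabetic (median 1.47) and than in Control islets (median 1.55), including the 16 that passed the filter without the Rescue libraries. Without Rescue 1, 14 of the 25 were called against Diabetic. *Mki67*, the proliferation antigen Ki-67, was at 34.0 and 14.5 RPKM in Rescue libraries, at 2.80, 5.80 and 6.995 RPKM in Diabetic libraries and at 4.01, 2.10 and 3.67 RPKM in Control libraries. *Top2a*, the mitotic topoisomerase, was at 22.6 and 12.9 RPKM in Rescue libraries, at 2.17 to 5.28 RPKM in Diabetic libraries and at 2.62 to 3.83 RPKM in Control libraries. The largest differences besides these were those of cyclin B2 (*Ccnb2*, 2.06) and the Aurora B kinase (*Aurkb*, 1.91) against Diabetic, and of the kinase *Plk1* (2.06) and the anaphase activator *Cdc20* (2.03) against Control. In Diabetic against Control islets 0 of 32 and 0 of 25 genes of the 2 lists were called by limma, with 3 and 0 at an unadjusted p under 0.05. The smallest p of each list there belonged to *Rrm2* (0.64, unadjusted p = 0.00635, adjusted p = 0.0839), *Cdc25a* (0.42, adjusted p = 0.112), *Bub1b* (0.30, adjusted p = 0.377) and *Mki67* (0.50, adjusted p = 0.428).

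Among 6 relatives that act with these genes, only *Cdk2*, the partner of cyclin E, was called. Of all tested genes 24% were called higher against Diabetic and 18% against Control. *Cdk2* was at 3.79 and 2.78 RPKM in Rescue libraries, at 1.01, 0.717 and 0.439 RPKM in Diabetic libraries and at 1.08, 0.668 and 0.373 RPKM in Control libraries (1.32 for Rescue minus Diabetic, SE 0.23, adjusted p = 0.00456, and 1.34 for Rescue minus Control, SE 0.23, adjusted p = 0.00342, by limma). The second E cyclin, *Ccne2*, differed by 0.31 and 0.33 (SE 0.18, adjusted p = 0.223 and 0.236). The repressors *E2f5* (-0.04 and -0.29) and *E2f6* (-0.27 and -0.47) and the DP partners *Tfdp1* (0.35 and 0.40) and *Tfdp2* (-0.33 and -0.39) were not called against Diabetic or Control. *E2f6* was at 3.09 RPKM in Rescue 1 and at 5.46 RPKM in Rescue 2, with the other 6 libraries between 4.81 and 6.23 RPKM.

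MuvB is the complex that p130 and p107 join with E2F4 in resting cells, and that B-Myb and FoxM1 join in dividing cells. Of its 7 tested genes, 4 were called higher in Rescue than in Diabetic islets, namely *Mybl1* (1.67), *Mybl2* (1.28), *Foxm1* (1.05) and the core subunit *Lin9* (0.46), the first 3 with adjusted p of 0.00245, 0.0112 and 0.0247 and *Lin9* with 0.0469. Against Control 2 were called, *Mybl1* (1.61) and *Mybl2* (1.31). The other core genes *Lin37* (0.42 and 0.50), *Lin52* (-0.06 and -0.23) and *Rbbp4* (0.25 and 0.08) were not called. Of the 7, 3 passed the filter only through Rescue libraries, namely *Mybl1*, *Mybl2* and *Lin9*, so their calls were favoured by it. Of the other 4, 1 was called higher against Diabetic and 0 against Control, where 24% and 18% of all tested genes were. Without Rescue 1 a single gene was called in each comparison, and without Rescue 2, 4 were called against Control. *Mybl2*, the gene of B-Myb, was at 3.19 and 1.44 RPKM in Rescue libraries, at 0.657, 0.281 and 0.0673 RPKM in Diabetic libraries and at 0.529, 0.271 and 0.106 RPKM in Control libraries.

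Upstream of the pocket proteins, 12 genes of D cyclins, their kinases and CDK inhibitors were counted. Against Diabetic 5 were called higher in Rescue islets and 1 lower, and against Control 5 higher and 0 lower. The higher ones were the same in both comparisons: the kinase *Cdk6* (0.97 and 1.17), cyclin D3 (*Ccnd3*, 0.60 and 0.67) and the INK4 inhibitors *Cdkn2a* (1.58 and 1.77), *Cdkn2c* (1.36 and 0.67) and *Cdkn2d* (0.91 and 0.82). *Ccnd1*, the gene of cyclin D1, was the one lower, at 40.4 and 43.5 RPKM in Rescue libraries and 59.6, 65.0 and 63.7 RPKM in Diabetic libraries (-0.57, SE 0.14, adjusted p = 0.0198), and it was not called against Control (-0.27, adjusted p = 0.216). *Cdkn2c*, which encodes the inhibitor p18, was at 12.5 and 10.1 RPKM in Rescue libraries, at 2.88, 3.77 and 4.82 RPKM in Diabetic libraries and at 6.68, 5.92 and 7.50 RPKM in Control libraries. *Cdk4* itself was at 36.2 ± 7.52 RPKM in Rescue (SD, n = 2), 20.995 ± 4.28 RPKM in Diabetic (SD, n = 3) and 33.9 ± 9.16 RPKM in Control libraries (SD, n = 3) and was not called (adjusted p = 0.0558 against Diabetic and 0.783 against Control). Of the 12 genes, 2 passed the filter only through Rescue libraries, namely *Cdk6* and *Cdkn2a*, so their calls were favoured by it. Of the other 10, 3 were called higher and 1 lower against Diabetic, and 3 higher and 0 lower against Control. Of all tested genes 24% were called higher and 5.8% lower against Diabetic, and 18% higher and 5.48% lower against Control. Without Rescue 1, 3 were called higher in each comparison and the call of *Ccnd1* was lost, as it was without Diabetic 2; without Control 3, 3 were called higher against Control. *Ccnd2*, *Cdkn2b*, *Cdkn1a*, *Cdkn1b* and *Cdkn1c* were not called in either comparison, and 0 of the 12 were called in Diabetic against Control islets by limma (4 at an unadjusted p under 0.05), where *Cdkn2c* came nearest (-0.69, adjusted p = 0.0725).

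Turnover of cyclin E protein runs through the ubiquitin ligases of FBXW7 and SKP2. Of 5 tested genes of a cyclin E turnover list, *Fbxw7* (0.52, adjusted p = 0.0316) and *Usp28* (0.95, adjusted p = 0.0129), a deubiquitinase that opposes FBXW7, were called higher in Rescue than in Diabetic islets. Against Control only *Cks1b*, a cofactor of SKP2, was called (1.27, adjusted p = 0.00287), and the scaffolds *Cul1* and *Cul3* were not called in either. Without Rescue 1, 0 of the 5 were called against Diabetic. *Skp2* lay under the filter, at 0.781 ± 0.142 RPKM in Rescue (SD, n = 2), 0.287 ± 0.066 RPKM in Diabetic (SD, n = 3) and 0.341 ± 0.104 RPKM in Control libraries (SD, n = 3).

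Markers of immune cells, and of several other cell types, moved with the same comparisons. The summed RPKM of 9 lymphocyte genes (*Cd3e*, *Cd79a*, *Cd2* and others) was 381 and 285 in Rescue libraries, 113, 37.2 and 6.33 in Diabetic libraries and 5.61, 24.8 and 5.41 in Control libraries, and 7 of 9 were called higher than in Diabetic and 9 of 9 higher than in Control islets, 3 of them past the filter only through Rescue libraries. In Diabetic 3 and in Control 1, 3 of the 9 genes were listed at 0. Genes of germinal centre B cells, which divide fast, summed to 48.6 and 23.4 RPKM in Rescue libraries, 15.4, 3.83 and 0.280 in Diabetic libraries and 0.227, 2.48 and 0.201 in Control libraries. Much of these sums was *Fcer2a*, the gene of CD23, which resting B cells also carry, at 15.8 and 14.0 RPKM in Rescue libraries, 14.2, 2.10 and 0.0252 in Diabetic libraries and 0 to 1.85 in Control libraries. Without it the list summed to 32.8 and 9.39 RPKM in Rescue libraries, 1.22, 1.73 and 0.254 in Diabetic libraries and 0.201 to 0.628 in Control libraries, and the marker *Mef2b* was listed at 0 in all 8. The macrophage list summed to 651 and 558 RPKM in Rescue libraries, 86.8 to 242 in Diabetic libraries and 54.6 to 103 in Control libraries. Most of the Rescue sums was *Lyz2* (468 and 394 RPKM), while *C1qa*, at 94.8 and 85.2 RPKM, lay within the Diabetic range of 68.2 to 117. Of its 6 tested genes, 4 were called higher than in Diabetic and 5 higher than in Control islets. Plasma cell genes summed to 378 and 232 RPKM in Rescue libraries, 18.5 to 106 in Diabetic libraries and 7.49 to 10.7 in Control libraries. Of the 3 tested, 1 was called higher than in Diabetic and 3 higher than in Control islets. *Derl3* was at 22.1 and 16.0 RPKM in Rescue libraries and at 26.7, 25.6 and 18.5 RPKM in Diabetic libraries, where it made nearly all of the Diabetic 3 sum. In such bulk RNA a larger number of cells of a type and more RNA per cell cannot be told apart.

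Fibroblast genes (collagens, *Dcn*, *Dpt* and *Pdgfra*) summed to 95.8 and 106 RPKM in Rescue libraries, 18.2 to 25.4 in Diabetic libraries and 4.62 to 20.3 in Control libraries, and 4 of 6 were called higher in Rescue than in Diabetic islets and 6 of 6 higher than in Control islets. *Pdgfra* passed the filter only through Rescue libraries, and of the other 5 genes 3 and 5 were called. Of 5 endothelial genes, 2 were called higher in Rescue islets against Diabetic and 4 against Control. In Rescue islets the 2 tested duct genes, *Krt7* and *Spp1*, were called lower against Diabetic, and *Spp1* also against Control. *Ppy*, the hormone of pancreatic polypeptide cells, was at 266 and 380 RPKM in Rescue libraries, 761 to 1982 RPKM in Diabetic libraries and 3510 to 4677 RPKM in Control libraries, and was called lower in Rescue islets against both (-1.94 and -3.65). Of 7 β cell genes, 7 had a negative difference in Rescue minus Control (median -0.49, 1 called). In Diabetic minus Control 7 were also negative (median -1.14, 2 called). In Rescue minus Diabetic 6 were positive and 1 negative (median 0.07, 0 called). *Sst*, of the δ cell list, was at 506 and 308 RPKM in Rescue, 733 to 904 RPKM in Diabetic and 2804 to 4302 RPKM in Control libraries. The part of these cell types in the differences of the RB and E2F genes was not tested.

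**Figure D4:**
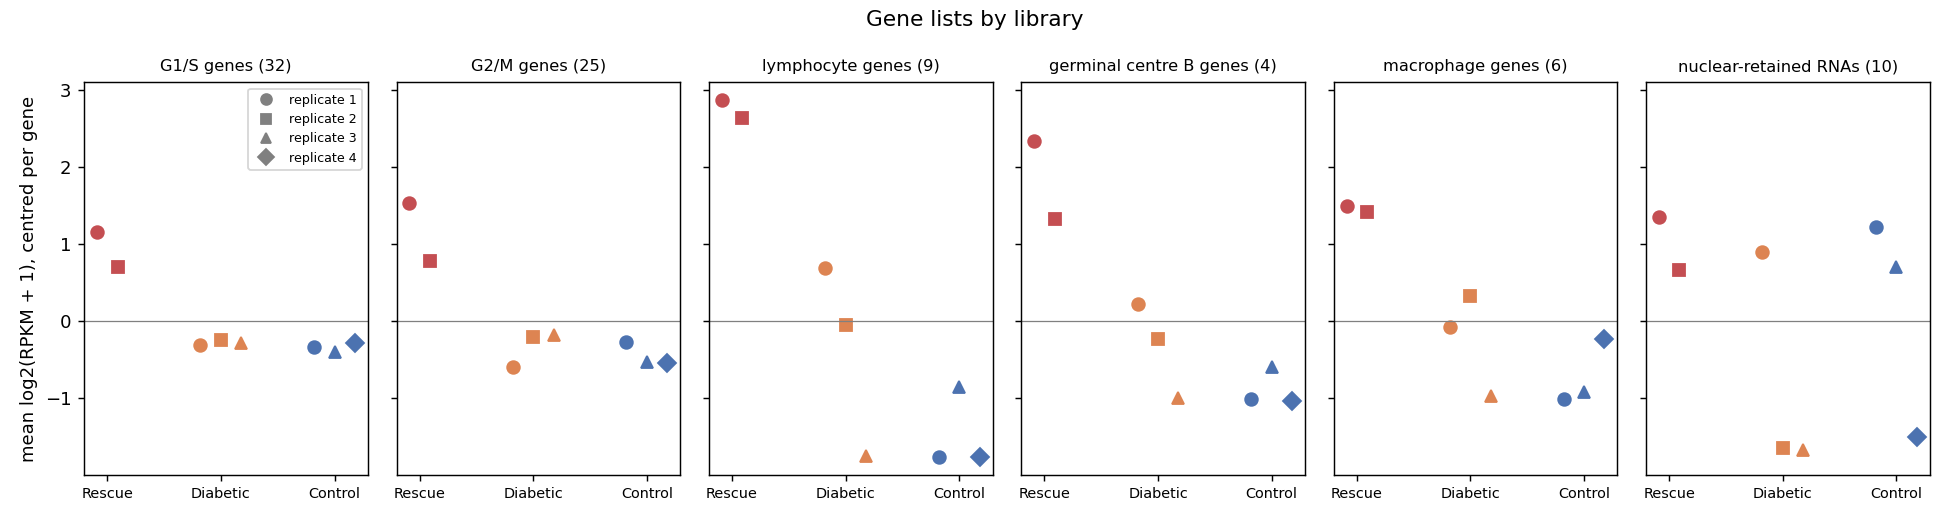
Mean of log2(RPKM + 1), centred per gene over the 8 libraries (y axis), of 6 gene lists in each library of the Rescue, Diabetic and Control genotypes (x axis); numbers in brackets are tested genes, points are libraries. Rescue libraries were highest in the G1/S, G2/M, lymphocyte, germinal centre B and macrophage lists, and Rescue 1 exceeded Rescue 2 in each of the 6. Some scored genes passed the filter only through Rescue libraries, which favoured high Rescue scores. These were 8 of 32 G1/S, 9 of 25 G2/M, 3 of 9 lymphocyte, 3 of 4 germinal centre B and 0 of 6 macrophage genes.

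Within the Diabetic libraries the members did not all follow the same list. Diabetic 1 had the most lymphocyte RNA of the 3 (113 RPKM) and the least G2/M RNA (23.5 RPKM summed, against 41.3 and 43.9 in Diabetic 2 and 3). Diabetic 1 also had the most nuclear-retained RNA, such as *Malat1* and *Neat1* (579 RPKM summed, against 148 and 133 in Diabetic 2 and 3). *Rbl1* (2.88 RPKM), *Ccne1* (1.88) and *E2f4* (15.5) were highest in Diabetic 1, whereas *E2f8* (0.359) and *E2f7* (0.265) were lowest there. *E2f8*, *E2f7* and *E2f1* were highest in Diabetic 3, which had almost no lymphocyte RNA (6.33 RPKM). These are 3 libraries, and the order has no test. Over the Diabetic and Control libraries together, *E2f4* had a Pearson r of -0.09 with the lymphocyte list and 0.85 with the nuclear-retained list. In the same order r was 0.10 and 0.48 for *Ccne1*, -0.23 and -0.78 for *E2f8* and 0.74 and 0.79 for *Rbl1*. For *E2f2* the lymphocyte list was the closer (0.77 and -0.12). The part of either list in the order of the Diabetic libraries was not tested.

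With the lymphocyte score as a covariate in the limma fit, 0 of the 9 genes were called in either Rescue comparison (1 and 0 at an unadjusted p under 0.05). In that fit 26 of all 12594 genes were called in Rescue minus Diabetic and 0 in Rescue minus Control, and 0 of the G1/S and G2/M genes. The medians of these 2 lists in Rescue minus Diabetic were 1.18 and 1.78 (1.19 and 1.47 without the covariate), with 23 of 32 and 23 of 25 genes at an unadjusted p under 0.05. In Rescue minus Control the medians were 1.27 and 1.90, with 19 and 22 genes at that p. Rescue minus Diabetic was then 0.24 for *Rbl1* (adjusted p = 0.764), 0.44 for *E2f2* (0.700), 0.45 for *E2f4* (0.624), 0.52 for *Ccne1* (0.657) and 1.27 for *E2f8* (0.252), the last above its value without the covariate. The Rescue libraries hold the highest scores, so genotype and score cannot be told apart in this fit, and the part of lymphocyte RNA in these differences was not tested otherwise. The nuclear-retained RNAs *Malat1*, *Neat1* and 8 others also varied between libraries, summing to 1792 and 523 RPKM in Rescue, 579, 148 and 133 in Diabetic and 946, 485 and 136 in Control libraries. With their score as a covariate 2 genes, *Rbl1* (0.73, adjusted p = 0.0308) and *E2f8* (1.23, adjusted p = 0.0196), were called against Diabetic and the same 3 as without it against Control. *E2f4* (0.55, adjusted p = 0.0667), *E2f2* (0.86, 0.0721) and *Ccne1* (0.57, 0.169) were then not called against Diabetic by limma. Both Rescue libraries but, of the Diabetic ones, only Diabetic 1 had high scores, so genotype and this score are partly confounded. The part of nuclear-retained RNA in these differences was not tested otherwise.

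Patterns most like each member were sought among the tested genes by the Pearson correlation of log2(RPKM + 1) over the 8 libraries, which share the 2 Rescue libraries as their extreme. *Rbl1* was most like *Malt1* (r = 0.996), *Jak3* and *Vav2*, and 528 genes had r above 0.95 with it. *E2f8* was most like *Lig1* (r = 0.983), *Gins1* and *Haspin*, with 55 genes above 0.95. *E2f2* was most like *Sdc1* (r = 0.993, 211 genes above 0.95), *Rps10* and *Rpl27*, and *E2f4* most like *Psma1* (r = 0.995, 131 genes above 0.95), *Kdm2a* and *Usp28*. *Ccne1* was nearest to *Malsu1* (r = 0.987), *Llph* and *Mdk*, and *E2f3* to *Efna1* (r = 0.996), *Zfp503* and *Foxf1*. *Rb1* was nearest to *M6pr* (r = 0.964), *Matr3* and *Bmt2*, *Rbl2* to *Ermp1* (r = 0.977), *Cyld* and *Eif2ak1*, and *E2f1* to *Atp2b1* (r = 0.875), *Rdx* and *Nes*, with 0 genes above 0.95. Between members, *Rb1* and *Rbl2* had r = 0.90 over the 8 libraries and 0.82 over the 6 without Rescue. Pairs of the genes called against Diabetic had r from 0.505 (*E2f2* and *E2f4*) to 0.855 (*Rbl1* and *E2f2*) over the 8. Over the 6 without Rescue their r ranged from -0.62 (*Rbl1* and *E2f8*) to 0.70 (*E2f4* and *Ccne1*), so their joint movement rested on the Rescue libraries.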

How the data were processed

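RNA-Seq of islets was analysed in 8 libraries, grouped by the genotype in the labels. According to the Methods the authors aligned reads with STAR to mm10 and counted them with HTSeq, and the deposited values are RPKM, 1 per gene and library; no source used here gives the tool versions. Whole reads and depth were recovered from the RPKM steps with GENCODE M21 exon lengths; 88.3% of 18126 genes above 0 gave whole reads within 0.01 reads. The implied library sizes were 10.8 M to 15.1 M reads, whereas the recovered reads summed to 9.65 M to 13.3 M (10.1 M against an implied 12.1 M in Rescue 1). Both rest on these exon lengths, and read numbers carry counting error only. Since the unit is RPKM, recovered reads entered only 1 alternative (voom).

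The 12594 genes that reached 1 RPKM in 2 or more libraries entered a limma fit (version 3.58.1, R 4.3.3) of log2(RPKM + 1) on genotype, over all 8 libraries and with a trended empirical Bayes prior. Tests were 2-sided, and p-values were adjusted by the Benjamini-Hochberg method within a comparison over the whole table. ± is the SD of RPKM. The script was tested on simulated data. The 10 members, the gene lists and the rule for named genes were chosen with earlier results of these data known. From lists of over 12 genes, up to 4 called genes with the largest difference are named per comparison, otherwise the 2 with the smallest p; Cdc25a and single values of other list genes were added after their values were seen. Promoters are from RefSeq (GRCm38.p6). Alternatives changed 1 choice at a time: pseudocount (0.1 or 0.5), filter, scaling, weights, robust prior, replicate block, 2 covariates, voom on recovered reads, the 2 groups alone, and each library left out. Figures were drawn with matplotlib 3.10.9.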

Additional observations from a re-analysis of the deposited data

How the results depend on the processing

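Of 552 alternative values of the 9 tested genes over 21 settings, 466 kept their direction and side of the threshold, 40 lost a call, 5 gained one and 41 changed sign, of which 1 (*Rbl1*, Rescue minus Control) was a called difference. The number of genes called in Rescue minus Diabetic was 5, and 1 with a mean RPKM of at least 5 (4 genes tested), 2 with quantile scaling, 2 with the replicate block, 0 with the lymphocyte covariate, 2 with the nuclear-retained covariate, 2 with the 2 groups alone, and 0 (without Rescue 1) to 5 when 1 library was left out. In Rescue minus Control it was 3, and 0 with a mean RPKM of at least 5, 0 with the lymphocyte covariate and 1 (without Rescue 1) to 4 when 1 library was left out. Pseudocounts of 0.1 and 0.5, no filter on low values, median-of-ratios scaling and voom each gave 4 in Rescue minus Diabetic. Quantile scaling and the replicate block each gave 2 in Rescue minus Control, and the 2 groups alone gave 4. In Diabetic minus Control the number called was 0, and 2 with array weights, where 6715 of all genes were called instead of 500. Counts over all genes ranged with 1 library left out from 18 to 1031 in Diabetic minus Control, 1580 to 4197 in Rescue minus Diabetic (3752 with all 8) and 1729 to 4027 in Rescue minus Control (2958 with all 8), and were 49, 2547 and 1313 with the replicate block. Over all alternatives the adjusted p in Rescue minus Diabetic ranged from 0.00318 to 0.764 for *Rbl1*, 0.0124 to 0.700 for *E2f2*, 0.00562 to 0.624 for *E2f4*, 0.00962 to 0.252 for *E2f8* and 0.0154 to 0.657 for *Ccne1*, each highest with the lymphocyte covariate. Median-of-ratios scaling brought the median of all genes in Rescue minus Diabetic to 0.04 (0.24 without it) and the called differences to 0.82 for *Rbl1*, 0.79 for *E2f2*, 0.54 for *E2f4*, 0.95 for *E2f8* and 0.60 for *Ccne1* (adjusted p = 0.0772). Same-numbered libraries deviated from their group means with correlations from -0.26 to 0.37, and differently numbered ones from -0.57 to 0.51. The deviations of the 2 Rescue libraries mirror each other, so these correlations cannot decide whether equal numbers mark pairs. The main fit did not take the numbers as pairs. The replicate block left *Rbl1* (adjusted p = 0.0464) and *E2f8* (0.0200) called against Diabetic and *E2f2* (0.0339) and *E2f8* (0.0241) against Control by limma.

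Signs changed in Diabetic minus Control for *Rbl1* with pseudocount 0.1 (-0.00409), array weights (-0.0699), the replicate block (-0.105) and the lymphocyte covariate (-0.259), for *Rbl2* with median-of-ratios (0.0555) and quantile scaling (0.0890), for *Ccne1* with median-of-ratios scaling (0.0171), the replicate block (0.147) and the nuclear-retained covariate (0.0423), and for *E2f8* with quantile scaling (-0.0927) and the nuclear-retained covariate (-0.0436). In Rescue minus Diabetic they changed for *Rb1* with median-of-ratios (-0.0305) and quantile scaling (-0.141) and the lymphocyte covariate (-0.0824), for *Rbl2* (-0.0518) and *E2f3* (-0.203) with quantile scaling, and for *E2f1* with array weights (0.00132) and the lymphocyte (0.348) and nuclear-retained covariates (0.156). In Rescue minus Control they changed for *E2f1* (-0.0219) and *E2f3* (-0.0624) with quantile scaling, *Rbl1* (-0.0142) and *Rbl2* (-0.0714) with the lymphocyte covariate and *Rb1* with the nuclear-retained covariate (0.00584). With 1 library left out the ranges that cross 0 were, in Diabetic minus Control, -0.168 to 0.173 for *Rbl1*, -0.0699 to 0.368 for *E2f1*, -0.00189 to 0.179 for *E2f3*, -0.0774 to 0.201 for *E2f8* and -0.234 to 0.132 for *Ccne1*; in Rescue minus Diabetic, -0.153 to 0.526 for *Rb1*, -0.0621 to 0.576 for *Rbl2* and -0.300 to 0.256 for *E2f1*; and in Rescue minus Control, -0.352 to 0.326 for *Rb1*, -0.133 to 0.506 for *Rbl2* and -0.156 to 0.401 for *E2f1*. The cause of these changes was not tested. Rescue has 2 libraries, and genes under 1 RPKM rest on few reads.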
